A study of Rattus norvegicus with 24 samples.

Results

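The keratin gene family was followed across 24 Affymetrix arrays of rat mammary gland. Its members were all probe sets annotated to exactly 1 gene whose symbol is Krt followed by a number. This rule gave 27 probe sets for 25 genes, out of 20826 probe sets with 1 gene that stand for 14217 genes. Krt6c had 3 probe sets and every other keratin had 1. The reference gene table lists 54 protein-coding keratin symbols, so a part of the family was measured. The members comprised 4 luminal keratins (Krt7, Krt8, Krt18, Krt19), 4 basal keratins (Krt5, Krt14, Krt15, Krt17) and 17 others. Of the others, 8 are mainly known from stratified epithelia such as epidermis (Krt1, Krt10, Krt6c, Krt4, Krt13, Krt78, Krt79, Krt24). A further 5 are mainly known from the hair follicle (Krt25, Krt71, Krt33b, Krt36, Krt86), and Krt12, Krt20, Krt23 and Krt90 fit none of these groups.

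Keratins are the intermediate filament proteins of epithelial cells. A filament is built from pairs of an acidic type I keratin and a basic type II keratin, and it is anchored at desmosomes and hemidesmosomes. In the mammary gland the inner luminal cells typically make the pair Krt8 and Krt18 with Krt7 and Krt19, the outer basal and myoepithelial cells make Krt5 and Krt14 with Krt17, and the overlying skin and its hair follicles make further pairs of their own. Among the measured genes, 14 code for type I and 11 for type II keratins.

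The rats were Sprague-Dawley, and osmotic pumps placed under the skin released 17β-estradiol, the main estrogen of the ovary, from weaning at postnatal day 21 to postnatal day 33. The doses were 0, 0.1, 1 and 10 µg/kg/day in rats labelled female and in rats labelled male, which makes 8 groups of 3 arrays. All groups carried a pump, and the group at 0 is the control of its sex. RNA came from whole abdominal glands, so skin, fat, muscle and lymph node tissue could be part of a sample. The labels do not say that the arrays stand for separate animals, and what the p-values weigh is the variation from array to array, which may be technical alone.

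Values are signed log values, taken here as log2. Each probe set is centred on about 0 within each sex, so a value gives a keratin's position relative to the other arrays of its sex. Absolute levels, an order of levels among keratins and a contrast of female with male levels cannot be given, and neither the sex labels nor the tissue label can be checked from levels. Array medians lay between -0.0176 and 0.0132. Arrays also differed in measures of other tissues and of RNA quality, some of which moved with the groups. The mean of 16 hepatocyte genes was above 1 on 4 arrays, at 2.46 (female dose 0, replicate 1), 1.39 and 2.58 (male dose 0, replicates 2 and 3) and 1.18 (male dose 1, replicate 7). The mean of 14 skeletal muscle genes ranged from -3.14 to 1.55. The widest spread over probe sets was an SD of 0.485 (female dose 0.1, replicate 4) in females and 0.395 (male dose 0, replicate 1) in males. The difference between the 3′ and the 5′ probe set for beta-actin, a measure of RNA quality, was -0.56, -0.06 and -0.28 in males at 0 and -0.02, 0.16 and 0.05 in males at 10.

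Promoters of the keratins that mark the main groups are shown first, from 250 bases before to 50 bases after the RefSeq start in GRCr8. A promoter was found for 17 of the 25 keratin genes and is missing for Krt1, Krt7, Krt13, Krt14, Krt15, Krt17, Krt19 and Krt86. Krt71 and Krt25 form a type II and type I pair of the inner root sheath of the hair follicle, and their probe sets varied together across the arrays. Krt71 lies at chr7:134760984-134761283 (minus strand) and Krt25 at chr10:84771148-84771447 (minus strand), and capitals mark the letters TATAAA of a TATA box, 34 and 30 bases before the start.
Krt71: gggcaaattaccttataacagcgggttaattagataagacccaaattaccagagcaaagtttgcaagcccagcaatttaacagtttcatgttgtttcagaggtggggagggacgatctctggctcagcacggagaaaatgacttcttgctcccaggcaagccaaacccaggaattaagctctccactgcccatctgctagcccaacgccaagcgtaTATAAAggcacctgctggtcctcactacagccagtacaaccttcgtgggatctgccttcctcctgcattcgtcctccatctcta
Krt25: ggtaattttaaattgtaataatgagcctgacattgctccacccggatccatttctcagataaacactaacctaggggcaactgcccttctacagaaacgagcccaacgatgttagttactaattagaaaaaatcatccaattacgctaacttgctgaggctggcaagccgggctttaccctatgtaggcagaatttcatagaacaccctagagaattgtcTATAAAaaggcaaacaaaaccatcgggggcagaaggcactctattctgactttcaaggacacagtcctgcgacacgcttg
The basal keratin Krt5 lies at chr7:134730520-134730819 (minus strand) and the luminal keratin Krt18 at chr7:135035918-135036217 (plus strand). Capitals mark the Sp1 box GGGCGG on either strand, 54 and 84 bases before the start.
Krt5: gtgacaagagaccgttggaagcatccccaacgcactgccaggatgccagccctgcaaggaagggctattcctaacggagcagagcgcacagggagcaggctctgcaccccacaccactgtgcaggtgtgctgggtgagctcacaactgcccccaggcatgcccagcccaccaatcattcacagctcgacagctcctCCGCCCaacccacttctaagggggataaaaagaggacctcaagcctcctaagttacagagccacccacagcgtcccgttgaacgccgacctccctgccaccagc
Krt18: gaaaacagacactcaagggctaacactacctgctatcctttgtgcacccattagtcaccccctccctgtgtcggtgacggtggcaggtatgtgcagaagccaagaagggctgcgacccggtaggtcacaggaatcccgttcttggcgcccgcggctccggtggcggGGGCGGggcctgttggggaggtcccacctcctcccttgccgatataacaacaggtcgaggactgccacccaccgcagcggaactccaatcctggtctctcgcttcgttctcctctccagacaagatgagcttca
The partner of Krt18, Krt8, lies at chr7:135010290-135010589 (minus strand), and capitals mark TATAAA 104 bases before the start and an AP-1 site, TGANTCA, 13 bases after it.
Krt8: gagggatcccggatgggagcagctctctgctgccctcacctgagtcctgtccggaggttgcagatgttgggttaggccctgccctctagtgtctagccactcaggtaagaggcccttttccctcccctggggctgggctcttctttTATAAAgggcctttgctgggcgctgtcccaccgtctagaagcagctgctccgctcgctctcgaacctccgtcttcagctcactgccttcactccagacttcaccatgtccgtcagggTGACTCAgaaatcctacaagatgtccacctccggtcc
The letters TATAAA, read on the gene's strand, were present in 7 of the 17 keratin promoters (Krt8, Krt10, Krt12, Krt20, Krt25, Krt33b, Krt71), against 9.08% of 27457 promoters of the same length. The Sp1 box, read on both strands, was in 3 keratin promoters (Krt5, Krt18, Krt33b) against 34.9% of all. TGANTCA, its own reverse complement, was in 2 (Krt4, Krt8) against 7.33%. The palindromic estrogen response element GGTCANNNTGACC was in 0 of 17 against 0.0255%, and its arm GGTCA, read on both strands, was in 7 against 40.2%. A match is a description of letters in this window and says nothing on whether a factor binds.

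In males at 10 µg/kg/day all 4 basal keratins rose against males at 0, by between 1.86 (Krt5) and 2.26 (Krt14) on the log2 scale. Krt14, the type I keratin of basal cells, lay at -1.39, -1.19 and -0.49 on the arrays at 0 and at 0.97, 1.64 and 1.09 at 10. Its partner Krt5 lay at -1.89, -1.48 and -0.44 at 0 and at 0.45, 0.81 and 0.51 at 10. Krt15, a keratin of basal and stem cells in stratified epithelia, lay at -2.04, -1.69 and -0.24 at 0 and at 0.44, 0.82 and 0.76 at 10. The groups did not overlap for any of these keratins, and male replicate 3 was the highest of the control arrays each time. Krt17, found in basal cells and in the hair follicle, lay at -0.88, -1.23 and -0.37 at 0 and at 1.07, 1.38 and 0.75 at 10, again without overlap. The difference was 2.26 ± 0.40 (SE) for Krt14, or 4.77-fold with a 95% confidence interval of 2.67 to 8.53 (limma, adjusted p = 0.00084). The rise of Krt15 was 3.99-fold with an interval of 2.02 to 7.90 (adjusted p = 0.00691). The log2 difference was 1.89 ± 0.38 for Krt17 (adjusted p = 0.00207) and 1.86 ± 0.40 for Krt5 (adjusted p = 0.0037). In whole tissue, more RNA per cell and more cells of a type cannot be told apart.

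Of all 27 keratin probe sets, 10 rose and 0 fell in males at 10 (limma, adjusted p under 0.05), and 20 had an unadjusted p under 0.05. Over all 31042 probe sets, 7.81% rose and 9.64% fell. The median difference was 0.98 over the keratins and -0.01 over all probe sets. The 3 arrays at 10 lay wholly above the 3 at 0 for 13 of 27 keratin probe sets and for 18.2% of all. The count of called probe sets was 3 without male replicate 1 (Krt5, Krt14 and Krt17, with Krt15 at an adjusted p of 0.0516), 6 without male replicate 2 and 4 without male replicate 11. It was 5 with the hepatocyte and muscle means as covariates and 0 with the beta-actin difference as a covariate, which left Krt14 at 1.70 (adjusted p = 0.1) and Krt17 at 1.69 (adjusted p = 0.099).

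**Figure D1:**
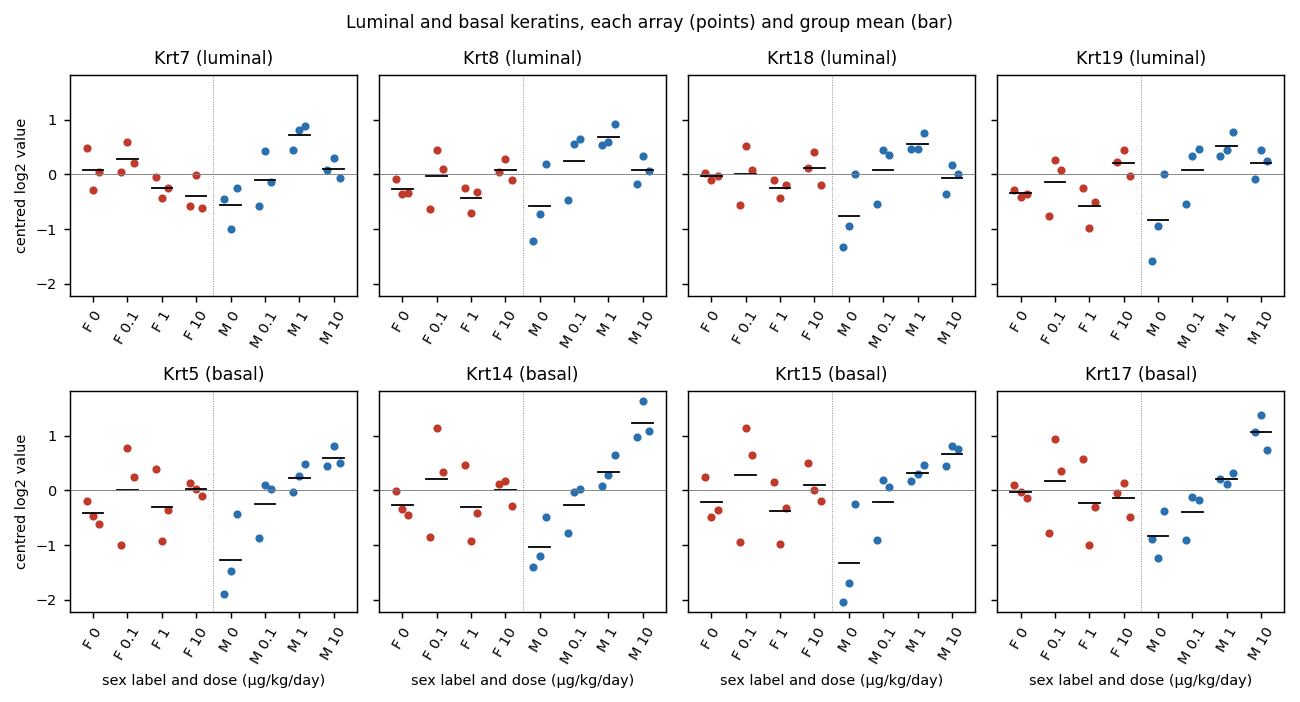
Centred log2 values (vertical axis) of the 4 luminal keratins (top) and the 4 basal keratins (bottom) on each array, by sex label (F, M) and dose in µg/kg/day, with points for arrays and bars for group means. In males the luminal means are highest at 1 and the basal means are highest at 10, while the female groups overlap in most panels.

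In males at 1 µg/kg/day it was the luminal keratins that passed the test. All 4 rose against males at 0, by between 1.26 and 1.36. Krt8, the type II keratin of simple epithelia, lay at -1.21, -0.72 and 0.19 at 0 and at 0.53, 0.59 and 0.91 at 1. Its partner Krt18 lay at -1.33, -0.94 and 0.01 at 0 and at 0.46, 0.47 and 0.75 at 1. The groups did not overlap for either gene. Krt7, a keratin of ducts and glands, lay at -0.46, -1.01 and -0.25 at 0 and at 0.45, 0.81 and 0.87 at 1. Krt19, the smallest keratin of simple epithelia, lay at -1.58, -0.95 and 0.01 at 0 and at 0.34, 0.44 and 0.78 at 1. These did not overlap either. The differences were 1.28 ± 0.25 for Krt7 (limma, adjusted p = 0.0109), 1.31 ± 0.30 for Krt18 (0.0235), 1.36 ± 0.33 for Krt19 (0.0313) and 1.26 ± 0.32 for Krt8 (0.0352). Krt5 was the fifth keratin called at this dose, at 2.84-fold with an interval of 1.59 to 5.07 (adjusted p = 0.0441). Krt15 (1.64, adjusted p = 0.0585), Krt14 (1.36, 0.0643) and Krt17 (1.04, 0.133) did not pass, although their arrays at 1 also lay wholly above those at 0.

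In all, 5 of 27 keratin probe sets rose and 0 fell in males at 1, against 1.53% and 2.1% of all probe sets, and 10 had an unadjusted p under 0.05. The median difference was 0.25 over the keratins and -0.01 over all probe sets. Arrays at 1 lay wholly above those at 0 for 12 of 27 keratin probe sets and for 12% of all. The count rested on few arrays. It was 0 without male replicate 2 or 9, 1 (Krt7) without male replicate 1, 7 or 8, and 8 without male replicate 3. It was 3 where only these 2 groups were fitted (Krt7, Krt14 and Krt17) and 8 with the hepatocyte and muscle means as covariates. Leaving out the arrays with hepatocyte transcripts left 1 control array, so that count is not given.

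At 10 the luminal keratin means of males lay below those at 1, and their arrays overlapped those at 0 for all but Krt7. Krt8 lay at -0.17, 0.34 and 0.07, Krt18 at -0.36, 0.17 and 0.00, Krt7 at 0.08, 0.30 and -0.08, and Krt19 at -0.08, 0.44 and 0.25. Against males at 0 the differences were 1.04 ± 0.33 for Krt19 (limma, adjusted p = 0.0378), 0.69 ± 0.30 for Krt18 (0.122), 0.67 ± 0.25 for Krt7 (0.0741) and 0.66 ± 0.32 for Krt8 (0.16). Krt19 was thus the only luminal keratin called, its arrays overlapped those at 0, and the call was lost without any of male replicates 1, 2, 11 and 12. Without the arrays with hepatocyte transcripts, Krt8 was at 1.29 and Krt18 at 1.26. That fit left male replicate 1 as the only control array, the one with the lowest Krt8 and Krt18. Male replicate 3, which had the highest hepatocyte mean, also had the highest luminal and basal keratin values of the control arrays. Replicate 2, with a hepatocyte mean of 1.39, had a luminal keratin mean of -0.90. Replicate 1, with a hepatocyte mean of -0.11, had a luminal keratin mean of -1.14. Whether hepatocyte transcripts had a part in the keratin values was not tested.

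Set directly against males at 1, no keratin passed the test in males at 10 (0 of 27, limma; 10 with an unadjusted p under 0.05), and 0.387% of all probe sets did. All 4 luminal keratins were lower at 10 than at 1, with a median of -0.61 and a range from -0.62 (Krt18) to -0.32 (Krt19). All 4 basal keratins were higher, with a median of 0.61 and a range from 0.35 (Krt5) to 0.90 (Krt14). The arrays did not overlap for Krt7, Krt8, Krt18, Krt14 and Krt17, whose adjusted p lay between 0.418 and 0.6. Over the family, 7 of 27 probe sets lay wholly above and 4 wholly below, against 9.25% and 9.72% of all. Without male replicate 10, Krt1 and Krt10 were called as higher.

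The balance of basal and luminal keratins within an array separated males at 10 from all other males. The mean of the 4 basal keratins minus the mean of the 4 luminal keratins was 0.87, 0.85 and 0.71 on the male arrays at 10. It was -0.41, -0.49 and -0.38 at 0, -0.33, -0.40 and -0.35 at 0.1, and -0.34, -0.34 and -0.36 at 1. The 9 lower male arrays thus lay within a narrow band although their luminal means ran from -1.14 to 0.83. On the female arrays the same quantity ranged from -0.42 to 0.56 and the doses overlapped. These are descriptions of a score over keratins chosen with earlier results known, with no test. The beta-actin difference also separated males at 10 (-0.02 to 0.16) from the other males (-0.56 to -0.06). Male replicate 2 at dose 0, a single array, had a beta-actin difference of -0.06 and a basal minus luminal value of -0.49. With the beta-actin difference as a covariate, no keratin was called in males at 10. Whether RNA quality had a part in this balance was not tested.

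**Figure D2:**
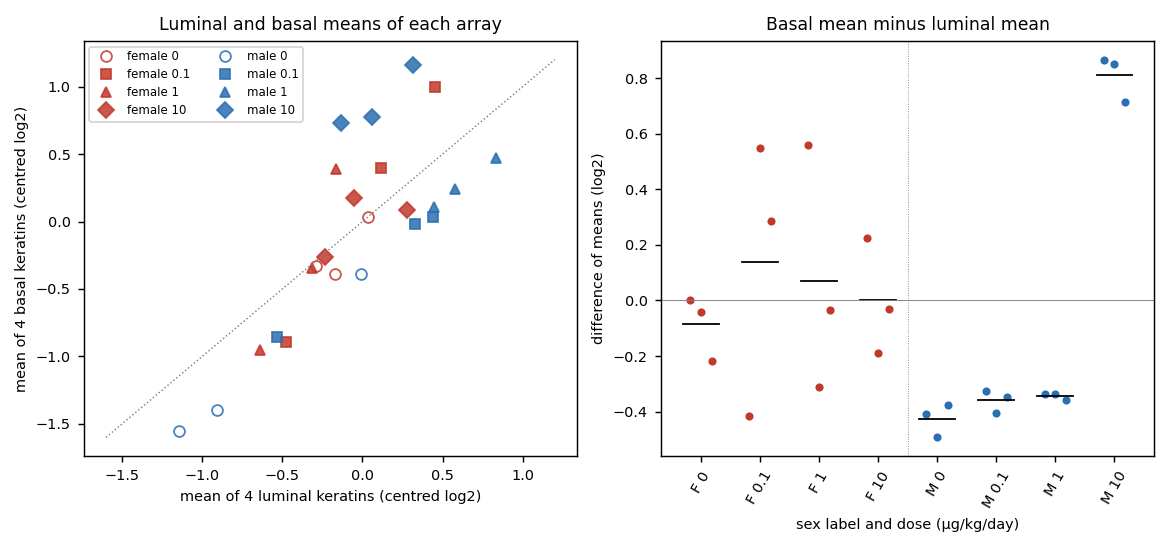
Left, the mean of 4 basal keratins against the mean of 4 luminal keratins on each array (centred log2 values, colour for sex label, symbol for dose, dotted line where both are equal). Right, the difference of the means by group, with points for arrays and bars for group means; males at 10 lie between 0.71 and 0.87 and all other male arrays lie between -0.49 and -0.33.

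The values of 2 partner pairs were correlated across arrays. Non-partners were not correlated, so this is not shown to be particular to partners. Over the 12 male arrays, Krt8 and Krt18 had Pearson's r = 0.994 and Spearman's rho = 0.951 (permutation p = 2e-05 for both, adjusted 2.67e-05). Over the 12 female arrays they had r = 0.942 (permutation p = 8e-05, adjusted 8e-05) and rho = 0.895 (permutation p = 0.0003, adjusted 0.0003). Krt5 and Krt14 had r = 0.948 and rho = 0.965 in males and r = 0.972 and rho = 0.972 in females (permutation p = 2e-05 for each, adjusted 2.67e-05). The value 2e-05 is the smallest that 100000 resamples can give in these 2-sided tests, and 4 relations were tested. Without the 2 arrays farthest from the median of the first gene, r stayed between 0.9 and 0.986. The permutations ran over all 12 arrays of a sex without regard to dose, so differences between doses shared by both genes enter their p-values. About the group means, which takes out the doses, r lay between 0.944 and 0.99, and no p-value was computed for it. The arrays of a sex share their centring. On the male arrays at 0 the mean of 12 luminal markers that are no keratins was -1.05, -0.69 and -0.05. The mean of the 4 luminal keratins was -1.14, -0.90 and -0.01 there. Whether epithelial content had a part in these correlations was not tested.

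Krt1 and Krt10, the keratin pair of the differentiating epidermis, rose in males at 10 as well, through 2 of the 3 arrays. Krt10, the type I keratin of the suprabasal epidermis, lay at 0.01, -0.03 and 0.06 at 0 and at -0.01, 2.49 and 0.90 at 10. Its type II partner Krt1 lay at 0.02, -0.14 and -0.26 at 0 and at 0.00, 2.38 and 0.50 at 10. For both genes replicate 11 was far above the others and replicate 10 lay within the range of the controls. The differences were 1.11 ± 0.36 for Krt10 (limma, adjusted p = 0.0411) and 1.08 ± 0.34 for Krt1 (adjusted p = 0.0352). Without replicate 11 they were 0.43 (adjusted p = 0.217) and 0.37 (adjusted p = 0.0532), and both calls were also lost without each of male replicates 1, 2 and 3. The Krt10 call was further lost without replicate 12. In total, leaving out 1 array ended the call in 5 of 6 cases for Krt10 and 4 of 6 for Krt1, and each kept it in 5 of 10 alternatives.

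Krt6c belongs to the Krt6 keratins, which are made in the companion layer of the hair follicle and in activated epidermis. These genes are near-identical copies of each other, so the probe sets may not tell them apart. At 10 in males, 1 probe set lay at 0.74, 1.43 and 0.22, against -0.13, -0.28 and -0.13 at 0, and another lay at 0.89, 1.77 and 0.46, against -0.10, -0.38 and -0.26. Neither overlapped with the controls. Their differences were 0.98 ± 0.27 (limma, adjusted p = 0.017) and 1.29 ± 0.42 (adjusted p = 0.0411), while the third probe set was at 0.27 ± 0.10 (adjusted p = 0.0679). Without replicate 11 the first was at 0.66 (adjusted p = 0.12) and the second at 0.92 (adjusted p = 0.209). Leaving out 1 array ended the first call in 2 of 6 cases and the second in 5 of 6, and they were kept in 5 and 4 of 10 alternatives. Among the 10 probe sets of stratified keratins, 4 (of 3 genes) rose and 0 fell, against 7.81% and 9.64% of all, with a median of 0.43.

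Of the 5 hair follicle keratins, 4 had the widest spread of the family, with an SD within a sex from 0.99 (Krt33b) to 2.03 (Krt25), while Krt36 was at 0.18. Krt71, the type II keratin of the inner root sheath, lay at -0.68, -0.33 and -0.45 in males at 0. It lay at -0.50, -0.23 and -0.10 at 0.1, at 2.64, 0.56 and -0.13 at 1, and at 4.57, 3.95 and 1.84 at 10. All arrays at 10 were above all at 0, and at 1 replicate 7 stood above the others. The rise at 10 was 3.94 ± 1.16, or 15.3-fold with a 95% confidence interval of 2.85 to 82.3 (limma, adjusted p = 0.0249). The call was lost without any of male replicates 1, 3, 10 and 11, with adjusted p up to 0.0902. Without the arrays with hepatocyte transcripts, which left 1 control array, the difference was 4.13. Krt25, its type I counterpart, lay at -0.09, -0.46 and -0.07 at 0 and at 4.79, 4.02 and 2.13 at 10. It did not pass, at 3.86 ± 1.38 (adjusted p = 0.061), with no overlap. Krt86, a keratin of the hair shaft, lay at 2.46, 1.92 and 0.45 at 10, against 0.10, -0.31 and -0.06 at 0, and was at 1.70 ± 0.78 (adjusted p = 0.14). Of the 5 hair keratins 1 rose and 0 fell, against 7.81% and 9.64% of all probe sets, and Krt36 was at 0.01.

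In females the hair keratins also varied widely, and none passed the test at 10 against 0. Krt25 was at -2.05 ± 1.38 (limma, adjusted p = 0.603), Krt86 at -1.80 ± 0.78 (0.319), Krt33b, named after its values were seen, at -1.61 ± 0.68 (0.296), Krt71 at -1.49 ± 1.16 (0.673) and Krt36 at 0.03, with a median of -1.61. The arrays at 10 lay wholly below those at 0 for Krt86 and Krt33b, which is the side opposite to the male differences. Over the family, 4 of 27 probe sets lay wholly below, against 10.2% of all. Krt71 reached 3.39 in replicate 2 at dose 0, 1.91 in replicate 5 at 0.1, 4.57 in replicate 7 at 1 and 0.97 in replicate 10 at 10, while every dose also held an array at 0.24 or below. Krt25 was highest on the same 4 arrays, at 4.05, 2.37, 5.02 and 1.13. The same array of each female group was thus the highest for both keratins. Trichohyalin (Tchh), a structural protein of the inner root sheath that is no keratin, lay at 4.33, 2.24, 5.31 and 0.64 on these arrays. In males at 10 Tchh lay at 4.57 and 2.59 on replicates 11 and 12 and higher still on replicate 10, and at 1 it lay at 3.35 on replicate 7. It rose by 4.92 ± 1.51 in males at 10 (limma, adjusted p = 0.0304). Whether the amount of skin or hair follicle in a sample had a part in the keratin differences was not tested.

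**Figure D3:**
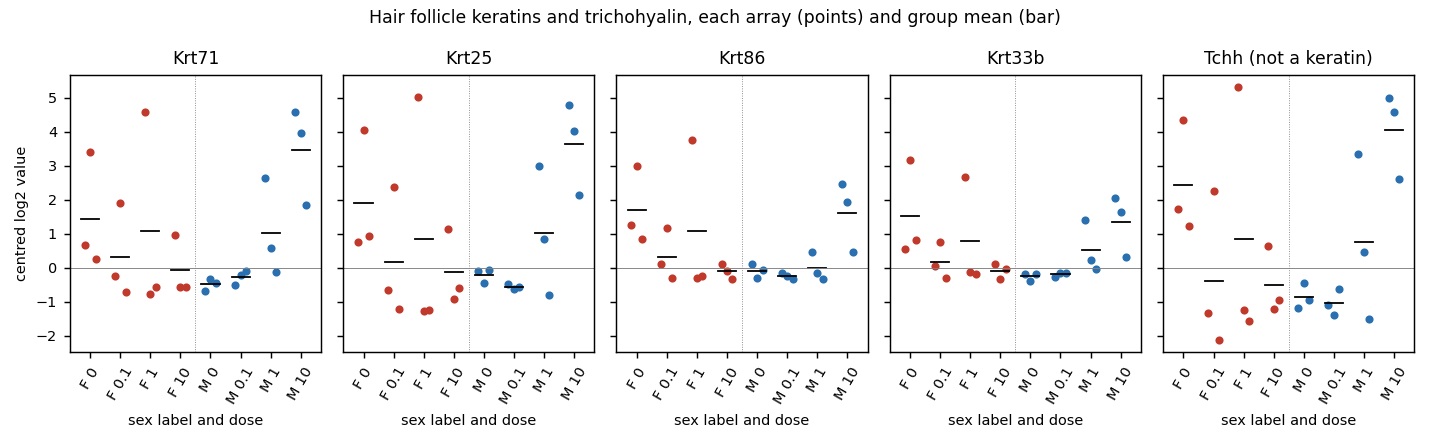
Centred log2 values of Krt71, Krt25, Krt86, Krt33b and Tchh on each array (points) with group means (bars), by sex label and dose in µg/kg/day. The same female arrays are high in each panel, up to 5.31 for Tchh at dose 1, and the 3 male arrays at 10 lie above those at 0 and 0.1.

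Of the 25 keratin genes, 12 passed the test in at least 1 comparison and 13 in none. Among the latter, the widest spread after Krt25 and Krt86 was that of Krt33b and Krt23, which are named here after their values were seen. Krt33b, a hair shaft keratin whose probes may pick up its close copies, was at 1.58 ± 0.68 in males at 10 (limma, adjusted p = 0.114). Krt23, a keratin of glandular epithelia, lay at -1.39, -0.92 and -0.30 in males at 0, at 0.12, 0.24 and 0.69 at 1 and at 0.01, 0.31 and 0.06 at 10. It was thus higher at both doses without overlap, at 1.22 ± 0.37 (adjusted p = 0.0763) and 1.00 ± 0.37 (adjusted p = 0.0728). Krt20, a keratin of gut and urothelium also chosen after its values were seen, had the lowest difference of the family in males at 10, -0.67 ± 0.31 (adjusted p = 0.146). On single male arrays it reached 1.36 at 0, 1.26 at 0.1 and 1.15 at 1. Krt24 was the keratin whose arrays at 10 lay wholly below those at 0, at -0.33 (adjusted p = 0.0999). Over all probe sets, 18.9% lay wholly below. Krt20 and Krt24 were called as lower with array weights. Krt79, a keratin of sebaceous ducts, was at 0.59 (adjusted p = 0.139) and Krt13, of the internal stratified epithelia, at 0.24 (adjusted p = 0.509). The differences of Krt4, Krt12, Krt36, Krt78 and Krt90 in males at 10 lay between -0.12 and 0.03, close to the median of all probe sets.

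**Figure D4:**
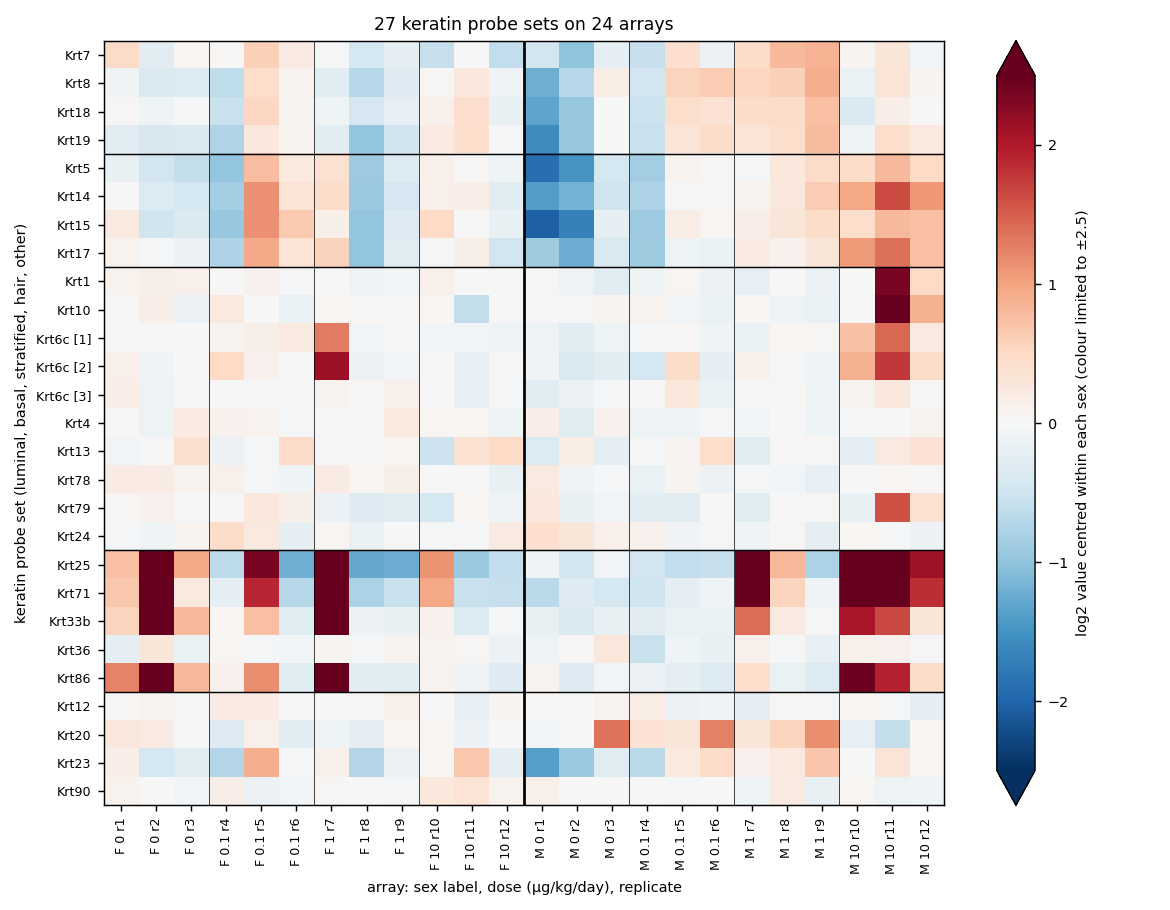
Centred log2 values (colour, limited to ±2.5) of the 27 keratin probe sets (vertical axis, grouped as luminal, basal, stratified, hair and other) on the 24 arrays (horizontal axis, by sex label, dose in µg/kg/day and replicate). The basal keratins are low on male replicates 1 and 2 at dose 0 and high on the male arrays at 10. The hair keratins are high on scattered female arrays. Their mean is also 2.80, 2.33 and 0.94 on the male arrays at 10 and 1.52 on male replicate 7 at dose 1.

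**Figure D5:**
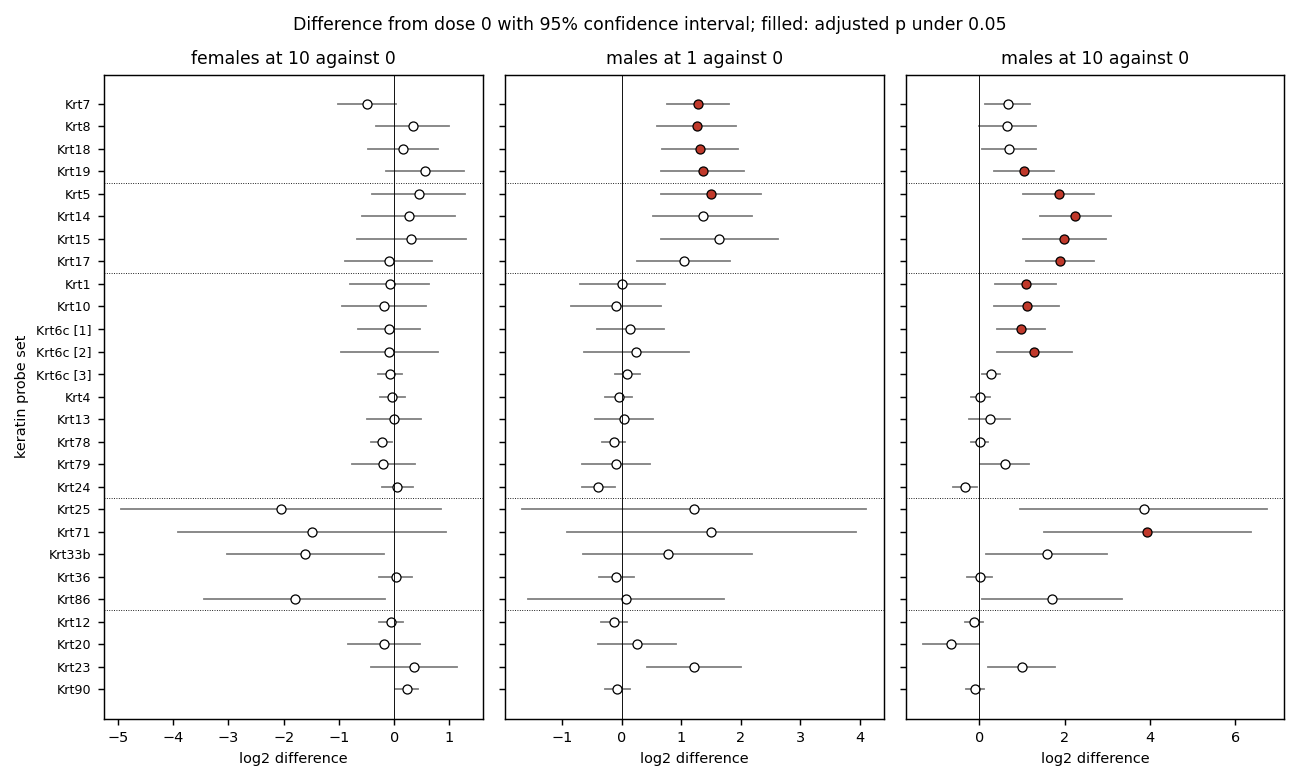
Log2 difference from dose 0 (horizontal axis) of the 27 keratin probe sets in females at 10, males at 1 and males at 10, with 95% confidence intervals as lines; filled points have an adjusted p under 0.05. Filled points number 0 in females at 10, 5 in males at 1 and 10 in males at 10.

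At 0.1 µg/kg/day no keratin passed in males (0 of 27, limma; 7 with an unadjusted p under 0.05), and 0% of all probe sets did. The values of the mammary keratins nonetheless lay on the side of the higher doses. The luminal keratins had a median difference of 0.83, with a range from 0.47 to 0.92 and adjusted p of at least 0.356. The basal keratins had a median of 0.89, with a range from 0.43 to 1.11 and adjusted p of at least 0.373. Of the 3 arrays, replicate 4 was low, at -0.77 for Krt14 and -0.47 for Krt8, and replicates 5 and 6 were at -0.02 and 0.02 for Krt14 and at 0.56 and 0.64 for Krt8. All the male comparisons with dose 0 share the same 3 control arrays.

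In females no keratin passed the test at any dose. The counts were 0 of 27 at 0.1, at 1 and at 10 (limma), with 0, 0 and 4 probe sets at an unadjusted p under 0.05. Over all probe sets, 0% passed at 0.1, 0% at 1 and 1.86% at 10. At 10 against 1, 0 of 27 passed and 3 had an unadjusted p under 0.05, against 0.267% of all that passed. Krt14 lay at -0.00, -0.34 and -0.44 in females at 0 and at 0.12, 0.17 and -0.29 at 10, which overlap. Krt8 lay at -0.08, -0.36 and -0.34 at 0 and at 0.04, 0.27 and -0.10 at 10, which overlap as well. The difference at 10 was 0.26 for Krt14 with a 95% confidence interval from -0.58 to 1.10, and 0.33 for Krt8 with an interval from -0.33 to 1.00. At the same dose the male differences were 2.26 for Krt14, above the female interval, and 0.66 for Krt8, inside it. The male differences carry errors of their own. The direct test of the difference between the sexes, given below, did not pass for either keratin.

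Krt19 and Krt5 were the only mammary keratins whose female arrays at 10 lay wholly above those at 0. Over the family, 2 of 27 probe sets lay wholly above and 4 wholly below. These counts are near the 9.67% and 10.2% of all probe sets that did so. Krt19 lay at -0.29, -0.41 and -0.35 at 0 and at 0.22, 0.44 and -0.03 at 10, a difference of 0.56 ± 0.33 (limma, adjusted p = 0.535). Krt5 lay at -0.19, -0.46 and -0.60 at 0 and at 0.14, 0.03 and -0.10 at 10, a difference of 0.44 ± 0.40 (adjusted p = 0.737). Neither difference passed. Krt7 was at -0.49 ± 0.25 (adjusted p = 0.442), Krt18 at 0.15, Krt15 at 0.31 and Krt17 at -0.10. At 0.1 the female arrays were far apart, with Krt14 at -0.85, 1.15 and 0.35, and replicate 4, the array with the widest spread over probe sets, was the low one. With array weights, which were 0.159 for that array and 3.48 for replicate 5, the highest one, Krt5, Krt14 and Krt15 were called at 0.1.

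The difference between the sexes in the response to 10 was tested as an interaction, that is, the change from dose 0 in males less the change from dose 0 in females. No keratin passed (0 of 27, limma), 15 had an unadjusted p under 0.05, and 1.28% of all probe sets passed. All 4 basal keratins lay on the male side. Krt17 changed by 1.89 in males and was at -0.10 in females, an interaction with a 95% interval of 0.88 to 3.11 (adjusted p = 0.0682). The interaction was 1.99 ± 0.57 for Krt14 (adjusted p = 0.0814), 1.69 ± 0.66 for Krt15 (0.19) and 1.42 ± 0.57 for Krt5 (0.194). The luminal keratins lay between 0.33 (Krt8) and 1.16 (Krt7, adjusted p = 0.103). Krt71 was at 5.43 ± 1.64 (adjusted p = 0.0966), Krt25 at 5.91 ± 1.95 (0.125) and Krt86 at 3.51 ± 1.11 (0.11). The median was 0.79 over the keratins and -0.01 over all probe sets. The count depended on the model. Krt14, Krt17 and Krt25 were called where the 4 groups were fitted alone, and these with Krt33b, Krt71 and Krt86 with array weights. With the replicate number as a random block Krt14 and Krt17 were called, and as a fixed block Krt7, Krt17, Krt25 and Krt71. Krt17 was thus called in these 4 fits. No keratin was called in the other alternatives that kept every array or left out the widest arrays. The 95% interval for Krt14 ran from 0.81 to 3.18.

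Several genes that work with keratins also passed the test in males at 10. Counts of probe sets are to be read against 7.81% higher and 9.64% lower over all probe sets at this dose. Of 15 genes for keratin anchors at desmosomes and hemidesmosomes, 9 had a probe set that rose and 1, Dst, had a probe set that fell beside one that rose (9 and 1 of 23 probe sets). Desmoplakin (Dsp), which ties keratin filaments to the desmosome, was at 1.86 ± 0.40 in 1 probe set (limma, adjusted p = 0.0037) and -0.09 in another. Epiplakin (Eppk1), a keratin-binding linker, was at 1.38 ± 0.30 (adjusted p = 0.00418). Dystonin (Dst), whose epithelial form sits in the hemidesmosome, was at 1.31 ± 0.33 in 1 probe set (adjusted p = 0.00964) and -0.42 ± 0.09 in another (adjusted p = 0.0038). The median over the anchor probe sets was 0.17. Of 12 epithelial transcription factors 6 rose and 0 fell (7 of 18 probe sets higher), with a median of 0.54. Tp63, which drives the basal program of stratified epithelia, was at 1.76 ± 0.36 in 1 of its 2 probe sets (adjusted p = 0.00271) and -0.11 in the other. Tfap2c was at 1.52 ± 0.36 (adjusted p = 0.00755), and Grhl1, a factor of the epidermal barrier, at 0.97 ± 0.21 and 1.35 ± 0.35 in its 2 probe sets. Among 14 genes of other intermediate filaments, 2 of 22 probe sets were called, which is near the share over all probe sets: 1 of 3 for the nuclear lamin Lmnb1 (0.49) and that of Lmnb2 (0.24). In males at 1, 5 of 23 anchor and 7 of 18 transcription factor probe sets rose and 0 fell, against 1.53% and 2.1% of all. In females at 10, 0 and 2 passed, against 1.86% of all in either direction.

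Markers of the mammary cell layers that are no keratins were counted in the same way. Of 12 luminal markers, 7 rose and 0 fell in males at 10 (7 of 15 probe sets, against 7.81% of all; median 0.76) and 7 rose in males at 1 (8 of 15, against 1.53%; median 1.00). The prolactin receptor (Prlr), which marks hormone-responsive luminal cells, was at 1.19 ± 0.26 at 10 (limma, adjusted p = 0.00411) and 1.56 ± 0.26 at 1 (adjusted p = 0.00475) in the probe set with the smallest p, and at 0.03 at 10 in another. Of 11 basal and myoepithelial markers, 2 rose and 1 fell in males at 10, with a median of 0.09. These are 3 and 1 of 15 probe sets, against 7.81% and 9.64% of all, so the count lower is not above the background. Lamb3, a chain of the laminin of hemidesmosomes, was at 1.25 ± 0.20 (adjusted p = 0.000418). Egfr was at 1.33 ± 0.14 and 1.28 ± 0.14 in 2 of its 3 probe sets. The oxytocin receptor Oxtr, on contracting myoepithelial cells, was at -1.26 ± 0.22 (adjusted p = 0.000816), and smooth muscle actin Acta2 was at -0.04 ± 0.16 (adjusted p = 0.89). In males at 1, 4 of these rose and 1 fell (5 and 1 of 15 probe sets, against 1.53% and 2.1% of all), with Acta2 at 0.68 ± 0.16 (adjusted p = 0.0238). In females at 10, 1 of 15 luminal and 2 of 15 basal and myoepithelial probe sets rose and 0 fell, against 1.86% of all in either direction. These were Muc1 at 1.63 ± 0.33 (limma, adjusted p = 0.0141), 1 Egfr probe set at 0.58 ± 0.14 (0.044) and Acta2 at 0.62 ± 0.16 (0.0499). The basal keratins thus rose in males at 10, where Acta2 did not pass, while in males at 1 both Acta2 and Krt5 passed. In females at 10 Acta2 passed and no keratin did. The interaction for Acta2 was -0.66 ± 0.22 (limma, adjusted p = 0.133) and did not pass, so a difference between the sexes is not shown for it.

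Many genes listed for keratinocytes and hair follicles that are no keratins were higher on the same male arrays. Of 18 keratinocyte and cornified envelope genes, 10 rose and 0 fell in males at 10 (12 of 23 probe sets higher, against 7.81% of all), with a median of 0.82 over their probe sets. Galectin-7 (Lgals7), made in stratified epithelia, was at 2.28 ± 0.33 (limma, adjusted p = 0.000131). Suprabasin (Sbsn), of the differentiating epidermis, was at 1.64 ± 0.33 (adjusted p = 0.00222), and the cystatin Cst6 at 1.54 ± 0.31 (adjusted p = 0.00247). Involucrin (Ivl) was at 0.09 (adjusted p = 0.84). The mean of this list was 0.65, 1.16 and 0.48 on the male arrays at 10 and between -0.31 and -0.18 at 0. On replicate 10, where it was 0.65, Krt1 and Krt10 lay within the range of the controls. Of 12 hair follicle genes 5 rose and 0 fell (5 of 15 probe sets; median 0.40), with the hair shaft protein gene Krtap1-5 at 2.62 ± 0.79 (adjusted p = 0.0285) and Sostdc1, a signalling antagonist of the follicle, at 1.27 ± 0.25 (adjusted p = 0.00203). In males at 1, 2 of 23 keratinocyte and 1 of 15 hair follicle probe sets rose, against 1.53% of all. The 2 were Lgals7 at 1.59 ± 0.33 (limma, adjusted p = 0.0136) and Sfn at 1.29 ± 0.29 (0.0202), while Sbsn was at 0.11. In females at 10, 0 and 0 passed, against 1.86% of all in either direction. The part of skin in the rise of the basal keratins was not tested.

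The other tissue lists gave these values beside the keratin differences in males at 10. All 14 white adipocyte genes had a probe set that fell (21 of 22 probe sets, against 9.64% of all; median -1.21), and their mean went from between 0.44 and 0.58 at 0 to between -0.92 and -0.69 at 10. Of the hepatocyte genes 0 rose and 2 fell (3 of 21 probe sets lower), and albumin (Alb) was at -3.40 and -3.49 in its 2 probe sets. Of the muscle genes 0 rose and 1 fell (2 of 19 probe sets lower, near the share over all). Of 10 T and B cell genes 0 passed, with a median of 1.62 and adjusted p from 0.0938 for those with the smallest p. In females at 10, where no keratin passed, 11 of 14 adipocyte genes fell (14 of 22 probe sets, against 1.86% of all in either direction; median -0.75), and Alb was at -3.85 and -3.89. The part of fat content in the keratin differences was not tested.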

How the data were processed

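RNA from 24 rat mammary samples was measured on Affymetrix arrays, with 8 µg of total RNA labelled with biotin, per the labels' protocols. The deposited log2 values, as they are taken here, come from the authors' table of 31099 probe sets. GCOS is named without a role or version in the submitters' processing notes. For summarization, normalization and log base the sources used here give nothing; tests and directions hold for any base, and folds assume base 2. In 45.3% (females) and 41.9% (males) of probe sets, the smallest positive and smallest negative value had the same size within 2e-06, as centring on a median within a sex would leave them. The sexes were therefore not compared at dose 0, and signal relative to background cannot be judged. The number of arrays limits the precision.

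After 57 controls were left out, 31042 probe sets were fitted with 8 group means in limma 3.58.1 (R 4.3.3; 16 residual and 2.95 prior degrees of freedom). The Benjamini-Hochberg adjustment ran over all of them, with a threshold of 0.05. Errors of differences are standard errors with 3 arrays a group. Array columns were matched to groups by sample title. Correlations used 100000 permutations. Script output was tested on simulated data.

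Gene symbols came from the platform annotation: 1 gene for 20826 probe sets, several for 436 and none for 9780; gene numbers of 20758 were found in the reference table, which changed 0 symbols. Probe sets have no genome position here, as the arrays come with no named build. Promoters are from RefSeq, GRCr8. Named keratins are the luminal and basal ones, every keratin that passed in any of 9 comparisons, and the 2 others with the largest SD. From each gene list, up to 3 members with the smallest p in males at 10 and up to 2 in females at 10 could be named, with Tp63, Tchh and Alb. A list gene counts as called where any of its probe sets passed, and list medians are over probe sets. The members and lists were chosen with earlier results of these data known. The alternatives were only the groups compared, array weights, quantile normalization within a sex, robust eBayes, hepatocyte and muscle means or the beta-actin difference as covariates, leaving out arrays with a hepatocyte mean above 1 or the widest array of each sex, 1-gene probe sets only, the replicate number as a block, and leaving out each array.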

Additional observations from a re-analysis of the deposited data

Results flagged for a closer look

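These results passed a test of the difference between the sexes in the response to 10 µg/kg/day (limma interaction, the change from dose 0 in males less the change from dose 0 in females). A probe set annotated to 4 hair keratins together, Krt31, Krt33b, Krt34 and Krt33a, was left out of the family by its rule and was singled out after its values were seen. Its interaction was 5.63 ± 1.30 (adjusted p = 0.039), with 2.84 ± 0.92 in males (adjusted p = 0.0399) and -2.78 ± 0.92 in females (adjusted p = 0.145). It lay at 3.62, 2.99 and 1.40 in males at 10 and at 0.09, -0.17 and -0.44 at 0, and in females at 0.17, -0.56 and -0.58 at 10 and at 2.18, 3.82 and 1.39 at 0. A second probe set for the same 4 genes was at 2.53 (adjusted p = 0.183). Among the genes listed beside the keratins, the interaction was 2.21 for Lgals7 and 1.88 for Sfn, both of stratified epithelia. It was -1.30 for the epithelial transcription factor Ehf, which rose in females (1.30) and was at 0.00 in males. For Egfr it was 0.95 in 1 of 3 probe sets, and for Oxtr it was -1.44.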

How the results depend on the processing

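Counts of called keratin probe sets moved with the settings as follows. In males at 10 (10 called) they were 6 with quantile normalization, 5 with hepatocyte and muscle covariates, 0 with the beta-actin covariate and 5 without the widest arrays, and leaving out 1 array gave 3 to 9. Array weights gave 12, with Krt20, Krt24 and Krt79 added and Krt19 lost. Fitting only the groups compared gave 9, with Krt1, Krt10, Krt19 and 1 Krt6c probe set lost and Krt23, Krt25 and Krt33b added. In males at 1 (5 called) they were 3 with only the groups compared, 8 with the hepatocyte and muscle covariates and 1 without the widest arrays. They were 4, the luminal keratins, with each of quantile normalization, robust eBayes and the beta-actin covariate. Leaving out 1 array gave 0 to 8. The fit without the hepatocyte arrays left a single male array at 0, so its count is not given. For the interaction (0 called) they were 3 with only the groups compared, 6 with array weights and 0 to 1 with 1 array left out. Array weights also called 3 in females at 0.1, 1 in females at 10 (Krt78, lower) and 1 in males at 10 against 1 (Krt10), where leaving out 1 array gave 0 to 2. Counts in females at 1, in males at 0.1 and in females at 10 against 1 were 0 in every setting run. Krt5, Krt14 and Krt17 kept their call in males at 10 without any single array and in 9 of 10 alternatives. The exception was the beta-actin covariate, and 1 of the 9, without the hepatocyte arrays, rested on a single male control array. Directions of single keratins were followed for the differences at 10 against 0 in each sex. Those that turned were uncalled differences in females: Krt17 (0.20) and the Krt6c probe sets (0.24, 0.024 and 0.034) with the hepatocyte and muscle covariates, 1 Krt6c probe set (0.0080) without the hepatocyte arrays, and, with 1 array left out, Krt17 (range -0.24 to 0.071), Krt10 (-0.29 to 0.029) and that Krt6c probe set (-0.14 to 0.0080). The cause of these moves was not tested.

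The labels number male and female arrays alike, so the pairing was checked. Deviations of same-numbered arrays correlated from -0.48 to 0.59 and 5 of 12 exceeded 0.1, so the numbers were not taken as pairs. The 3 correlations at dose 0.1 lay between 0.44 and 0.59. At dose 10 they were 0.45 and 0.56 for replicates 10 and 11 and -0.25 for replicate 12. A shared origin of some arrays was thus not settled. With the replicate number as a random block (consensus correlation 0.106) the counts were 10 in males at 10 and 5 in males at 1, and 2 for the interaction (Krt14, Krt17); a fixed block, which was fitted for the interaction, gave 4 (Krt7, Krt17, Krt25, Krt71). With 3 arrays a group and centred values, small changes and low expression cannot be judged.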
